A study of Mus musculus with 8 samples.

Results

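This account covers 38 genes of glycolysis and of the hypoxia response, measured by RNA sequencing in a mouse kidney line labelled RFB and given as fibroblasts. Every library came from cells given TGF-β, which turns fibroblasts into matrix-making cells. Of the 8 libraries, 4 carry the label ad-GFP, where GFP is a fluorescent control protein, and 4 the label ad-CRE, where Cre is a recombinase that deletes DNA flanked by loxP sites; ad stands for adenovirus. Suv39h1, a methyltransferase of histone H3 lysine 9, is named by the series as its target. The allele for Cre to act on is not described in the labels used here, nor is it said whether RFB is 1 clone. The genes were chosen by symbol: 37 of the 38 symbols matched the table, giving 38 rows of 22274, since Aldoa labels 2 rows and Ero1l none. Of these rows 35 passed the filter on low counts and were tested, and 3 did not pass it: the second Aldoa row, Car9 and Ankrd37.

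Glycolysis splits glucose into pyruvate in the cytosol, and lactate dehydrogenase turns pyruvate into lactate when it is not burnt in mitochondria. Pyruvate dehydrogenase kinases block the entry of pyruvate into the citric acid cycle. Hypoxia-inducible factor (HIF) pairs an oxygen-labile alpha subunit with the stable subunit ARNT, and when oxygen is low it raises the genes of most glycolytic enzymes. When oxygen is present, prolyl hydroxylases mark the alpha subunit and the VHL protein directs it to destruction, so HIF activity is set largely at the level of protein, which RNA counts do not measure. In the kidney, proximal tubules rely mainly on oxidation of fatty acids, and fibroblasts activated by TGF-β are known for high glycolysis.

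Total counts were 15998257 to 20920828 per ad-GFP library and 17572152 to 22297598 per ad-CRE library. Suv39h1 fell from 41.5 ± 3.16 to 32.5 ± 0.795 CPM (counts as a rate per library, after TMM scaling; mean ± SD, n = 4 each), and Smarca4, which encodes the chromatin remodelling ATPase BRG1, fell from 288 ± 11.1 to 34.3 ± 3.20 CPM. Of 11 fibroblast markers tested 9 fell and 2 rose, and of 13 tubular epithelial markers 9 rose and 3 fell. These calls use the test and threshold given below, by which 36.3% of all genes tested fell and 36.8% rose. The summed level of the fibroblast list was 22682 to 24084 CPM in ad-GFP and 26587 to 28011 CPM in ad-CRE, most of it Fn1, and that of the epithelial list was 2377 to 2625 and 5196 to 5384 CPM. Among single markers, the fibroblast gene Lum had 1 read in all libraries together and the collecting duct gene Aqp2 had 0. Endothelial markers fell in 9 of 9 (206.5 to 221 against 88.0 to 97.6 CPM in sum) and leukocyte markers in 6 of 7 (228 to 260.5 against 164 to 172 CPM in sum), with Cd3e at 0. The part of these marker shifts in the results below was not tested. Whether replicates were separate cultures is not stated, and p-values therefore describe only how these libraries scatter, which may be technical.

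Summed over the listed genes, glycolytic transcripts were lower in ad-CRE at each step of the pathway, while 7 genes were higher. The regulator Pfkfb3 and the kinase Pdk2 rose the most. Among 35 genes with a test, 24 fell and 7 rose, and 4 stayed short of the threshold (edgeR quasi-likelihood test, Benjamini-Hochberg adjustment over all 13702 genes tested, threshold 0.05). Over all genes tested 73.1% passed in either direction, 36.3% fell and 36.8% rose, against 68.6% of the 35 genes that fell and 20% that rose, so that passing in itself is common here. The median log2 fold change was −0.37 for the 35 genes and 0.00 for all genes tested. The groups did not overlap (every library of one group above every library of the other) in 29 of the 35, against 66.2% of all genes tested. All the matched rows together took 1.05% to 1.07% of counts in the ad-GFP libraries and 0.707% to 0.725% in the ad-CRE libraries. Measures of the whole library also separated the groups: mitochondrial genes took 6.46% to 6.60% of counts in ad-GFP and 7.20% to 7.42% in ad-CRE, and 16359 to 16648 against 15911 to 16169 genes had a count. Their part in the falls was not tested. In a bulk measurement, fewer cells that express a gene and less RNA per cell cannot be told apart.

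**Figure D1:**
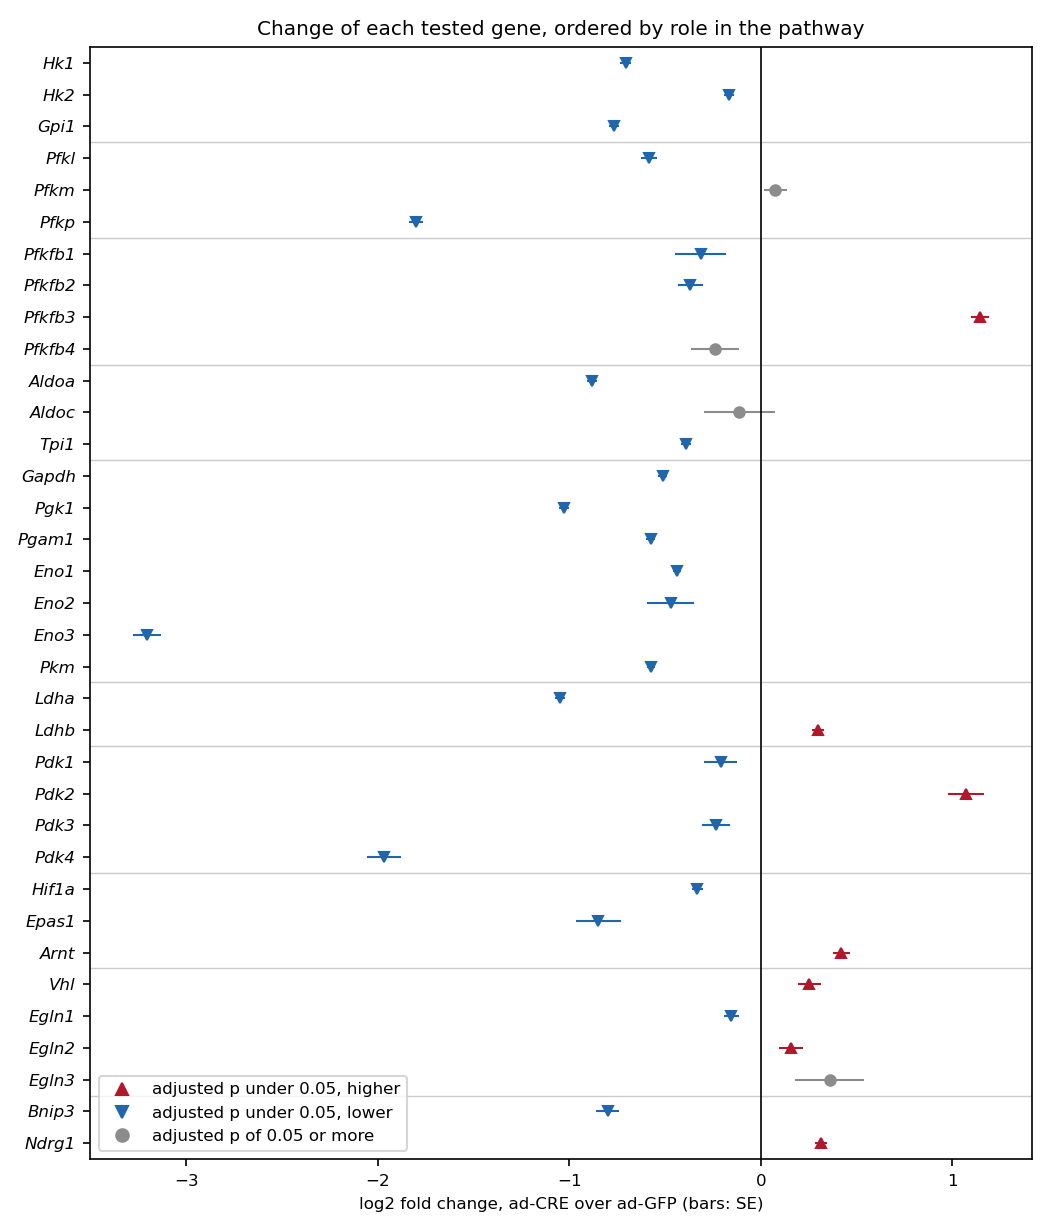
Log2 fold change (ad-CRE over ad-GFP, x axis) of each of the 35 genes tested, with its SE as a bar, in the order of the pathway; grey lines part the role groups. Downward triangles (24 genes) lie left of 0, with Eno3 at −3.20 the farthest, and upward triangles (7 genes) lie right of it, with Pfkfb3 at 1.14 and Pdk2 at 1.07 the farthest.

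The size of the change differed between genes. A drop of 1 log2 unit or more occurred in 5 genes, Eno3, Pdk4, Pfkp, Ldha and Pgk1, against 9.43% of all genes tested. A rise of that size occurred in 2 genes, Pfkfb3 and Pdk2, against 4.84% of all genes tested. Abundance was compared per length as FPKM (fragments scaled by transcript length and library size). Of 10 genes with a mean of at least 100 FPKM over all libraries 9 fell, and the other, Ldhb, rose. Of 13 genes under 10 FPKM, 7 fell and 2 rose. The shares of all tested genes at these levels were not computed, so these counts have no baseline. Over all genes tested, at any level, 36.3% fell and 36.8% rose.

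The DNA just before the start of transcription is shown for 5 genes because HIF binds a short core, ACGTG or GCGTG. They are picked examples of the large falls (Ldha, Pgk1, Pfkp), the hypoxia response (Bnip3) and the rises (Pfkfb3). The larger falls of Eno3 and Pdk4 and the rise of Pdk2 are not shown, so these windows do not represent all large changes. Each line gives 250 bases before an annotated start, 5′ to 3′ on the strand of the gene, from RefSeq on GRCm38.p6, with either core, read on either strand, in capitals. Ldha and Pfkfb3 each have 2 annotated starts, and of these the window with more matches is printed: the first for Ldha and the second for Pfkfb3.
Ldha, chr7:46845554-46845803, plus strand: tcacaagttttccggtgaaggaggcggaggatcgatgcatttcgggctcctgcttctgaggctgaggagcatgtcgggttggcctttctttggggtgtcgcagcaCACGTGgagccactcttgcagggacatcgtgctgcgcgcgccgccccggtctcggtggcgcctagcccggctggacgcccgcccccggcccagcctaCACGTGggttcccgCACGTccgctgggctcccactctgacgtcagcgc
Pgk1, chrX:106186850-106187099, plus strand: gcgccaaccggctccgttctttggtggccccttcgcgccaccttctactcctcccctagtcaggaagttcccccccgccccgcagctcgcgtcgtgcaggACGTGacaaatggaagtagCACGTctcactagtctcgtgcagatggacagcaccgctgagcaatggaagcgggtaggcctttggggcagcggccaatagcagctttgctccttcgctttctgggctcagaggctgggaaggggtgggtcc
Pfkp, chr13:6648772-6649021, minus strand: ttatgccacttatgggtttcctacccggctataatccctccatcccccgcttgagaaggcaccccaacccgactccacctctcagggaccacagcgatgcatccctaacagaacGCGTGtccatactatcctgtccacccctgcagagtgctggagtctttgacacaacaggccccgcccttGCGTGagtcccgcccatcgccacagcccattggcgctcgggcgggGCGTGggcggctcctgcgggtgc
Bnip3, chr7:138909507-138909756, minus strand: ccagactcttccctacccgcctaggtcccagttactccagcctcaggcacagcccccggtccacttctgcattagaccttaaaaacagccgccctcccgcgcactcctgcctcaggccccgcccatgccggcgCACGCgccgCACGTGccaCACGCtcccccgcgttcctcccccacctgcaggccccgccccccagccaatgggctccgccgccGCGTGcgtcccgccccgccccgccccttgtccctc
Pfkfb3, chr2:11502091-11502340, minus strand: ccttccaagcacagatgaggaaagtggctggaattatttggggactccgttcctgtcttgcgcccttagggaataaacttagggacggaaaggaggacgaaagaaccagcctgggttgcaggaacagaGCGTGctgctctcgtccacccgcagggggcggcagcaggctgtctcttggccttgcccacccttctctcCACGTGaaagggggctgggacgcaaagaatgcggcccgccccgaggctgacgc
The window of Ldha holds 5 matches to ACGTG counted on both strands, 4 of which come from 2 copies of the palindrome CACGTG, also the core bound by MYC and other E-box factors. The window of Pgk1 holds 2 matches to ACGTG, and that of Pfkp 3 matches to GCGTG and 0 to ACGTG. Bnip3 has 2 matches to ACGTG and 3 to GCGTG, and the printed window of Pfkfb3 has 2 and 1. In both, the 2 matches to ACGTG are 1 copy of CACGTG read on both strands. The window not printed holds 0 matches to ACGTG and 1 to GCGTG for Ldha, and 1 and 0 for Pfkfb3.

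Across the 35 genes found in the RefSeq table, 31 had ACGTG or GCGTG in at least 1 of their windows, and 18 had ACGTG. The entries for Epas1, Ero1l and Ndrg1 are missing. Either core stood in 41.5% of all 27025 genes listed there, and among the 10774 genes that were also tested here 60.2% had either and 24.6% had ACGTG. By window, a gene with several starts is counted once for each start. Either core then stood in 42 of 55 windows (76.4%) of the 35 genes and in 54.1% of the windows of tested genes. Mean GC content was 58.6% and 59.6%. By direction, 20 of 23 that fell and 5 of 6 that rose had either core, and 11 of 23 and 3 of 6 had ACGTG. Of the 4 that did not pass, 4 had either core and 2 had ACGTG. Car9 and Ankrd37, which were not tested, are outside this split. The genes were listed for glycolysis and the hypoxia response, so a share above that of tested genes may come with the choice of genes. That was not tested. A match is a string of letters and does not show that a factor was bound.

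The entry steps were lower. Values by library are listed in the order of replicates 1 to 4. Gpi1, the isomerase that turns glucose 6-phosphate into fructose 6-phosphate (ENSMUSG00000036427, GRCm38 chromosome 7, 34201330 to 34230336, minus strand), had 375, 366, 349.8 and 352 CPM under ad-GFP, against 212, 214, 216 and 207 CPM under ad-CRE. Every ad-CRE library lay below every ad-GFP library, and the level was 1.70-fold lower (log2 fold change −0.77, SE 0.028, edgeR adjusted p = 6.04e-21). Hk1, the hexokinase found in most tissues (ENSMUSG00000037012, GRCm38 chromosome 10, 62268855 to 62379908, minus strand), had 314, 306, 299 and 314 CPM under ad-GFP, against 186, 193, 185 and 193 CPM under ad-CRE. It too separated the groups without overlap, 1.63-fold lower in ad-CRE (log2 change −0.71, SE 0.028, edgeR adjusted p = 3.82e-20). Hk2, the hexokinase that insulin and HIF induce in many tissues, went from 297 ± 4.14 to 265 ± 5.78 CPM (SD, n = 4). That is a small fall (log2 change −0.16, SE 0.026, edgeR adjusted p = 1.68e-06), and again the groups did not overlap. The 2 hexokinases were close to equal in ad-CRE: Hk2 held 39.1% ± 0.950 in ad-GFP and 48.8% ± 0.447 in ad-CRE (SD, n = 4) of their summed FPKM.

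Phosphofructokinase commits sugar to glycolysis, and its 3 subunit genes did not move together. Pfkp, the platelet-type subunit (ENSMUSG00000021196, GRCm38 chromosome 13, 6579768 to 6648777, minus strand), had 134, 133, 135 and 137 CPM under ad-GFP, against 39.3, 38.3, 37.0 and 40.3 CPM under ad-CRE. The groups lay far apart, 3.48-fold lower in ad-CRE (log2 fold change −1.80, SE 0.037, edgeR adjusted p = 3.33e-27). Pfkl, the liver-type subunit (ENSMUSG00000020277, GRCm38 chromosome 10, 77986947 to 78010083, minus strand), had 83.4, 83.5, 79.1 and 88.2 CPM under ad-GFP, against 57.2, 54.1, 54.7 and 56.8 CPM under ad-CRE. All ad-CRE values of Pfkl were lower (log2 change −0.58, SE 0.04, edgeR adjusted p = 6.09e-14). Pfkm, the muscle-type subunit, did not pass: 24.2 ± 1.19 to 25.6 ± 1.59 CPM (SD, n = 4). Its change was 0.07 in log2 units with a 95% interval of −0.04 to 0.19 (edgeR adjusted p = 0.253), and its groups overlapped. Pfkp took 54.7% ± 1.84 in ad-GFP and 30.4% ± 0.613 in ad-CRE (SD, n = 4) of the summed FPKM of the 3 genes, so the leading transcript was Pfkp in ad-GFP and Pfkl in ad-CRE.

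The PFKFB enzymes make and remove fructose 2,6-bisphosphate, the strongest activator of phosphofructokinase, and here 1 of them rose while others fell. Pfkfb3, the form with the highest kinase activity relative to phosphatase activity (ENSMUSG00000026773, GRCm38 chromosome 2, 11471433 to 11554077, minus strand), had 34.4, 37.6, 36.0 and 35.4 CPM under ad-GFP, against 72.6, 80.1, 81.6 and 83.3 CPM under ad-CRE. All ad-CRE libraries lay above all ad-GFP libraries, 2.21-fold higher (log2 fold change 1.14, SE 0.047, edgeR adjusted p = 1.44e-19). Pfkfb2, the heart form, fell from 21.9 ± 1.51 to 16.9 ± 1.08 CPM (SD, n = 4; log2 change −0.37, edgeR adjusted p = 1.24e-05). Pfkfb1, the liver form, had few reads and overlapping groups, 5.37 ± 0.788 to 4.31 ± 0.397 CPM (SD, n = 4), and passed narrowly (log2 change −0.31, edgeR adjusted p = 0.0345). It no longer passed without ad-GFP replicate 2, where the log2 change was −0.21 (edgeR adjusted p = 0.192), nor without ad-CRE replicate 2, 3 or 4 (edgeR adjusted p = 0.054, 0.0928 and 0.0763) or with DESeq2 (DESeq2 adjusted p = 0.056). Pfkfb4, a form induced by hypoxia, did not pass (6.71 ± 1.13 to 5.71 ± 0.607 CPM, SD, n = 4; log2 change −0.24, 95% interval −0.48 to 0.01, edgeR adjusted p = 0.0867), but did without ad-GFP replicate 4 (log2 change −0.34, edgeR adjusted p = 0.0154) and under the filter of 5 CPM in 4 libraries (log2 change −0.26, edgeR adjusted p = 0.0475). Within the family, the Pfkfb3 share of summed FPKM was 38.7, 38.0, 39.4 and 35.7% under ad-GFP, against 57.0, 63.1, 64.2 and 63.9% under ad-CRE. The shares did not overlap, and ad-CRE replicate 1 was lower than the other ad-CRE libraries.

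Aldolase splits the doubly phosphorylated sugar, and its main gene fell. Aldoa (ENSMUSG00000030695, GRCm38 chromosome 7, 126795234 to 126800751, minus strand) had 883, 889, 864 and 866 CPM under ad-GFP, against 475, 476, 495 and 453 CPM under ad-CRE. The ad-CRE values were all lower, 1.84-fold lower (log2 fold change −0.88, SE 0.025, edgeR adjusted p = 1.01e-23). The second Aldoa row (ENSMUSG00000114515), a gene model on the same strand just upstream, had 34 reads in the ad-GFP and 19 in the ad-CRE libraries and was not tested. Aldoc, the brain form, was low and did not pass (2.66 ± 0.321 to 2.42 ± 0.608 CPM, SD, n = 4; log2 change −0.11, 95% interval −0.48 to 0.25, edgeR adjusted p = 0.595). Tpi1, which interconverts the 2 triose phosphates, fell from 360.3 ± 7.75 to 275 ± 6.35 CPM (SD, n = 4; log2 change −0.39, edgeR adjusted p = 3.34e-14) with no overlap.

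**Figure D2:**
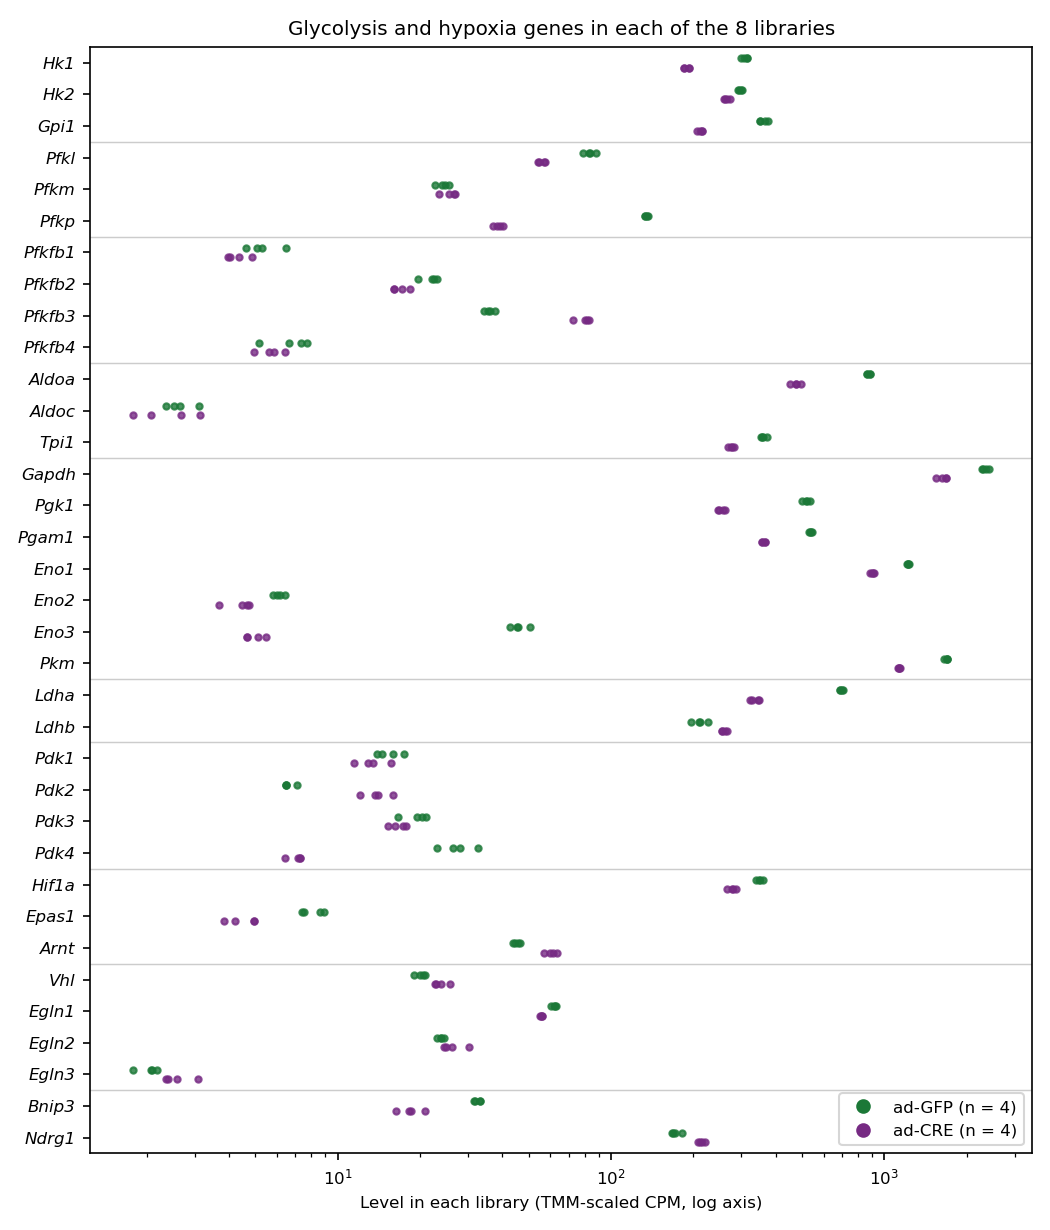
Level of each of the 35 genes tested in each library (x axis, TMM-scaled CPM, log axis), 4 ad-GFP points above 4 ad-CRE points in each row. The point clouds of the abundant enzymes, such as Gapdh, Eno1 and Pkm, are narrow and apart, whereas those of Pfkm, Pfkfb1, Pfkfb4, Aldoc, Pdk1 and Pdk3 overlap.

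All 7 genes of the steps from glyceraldehyde phosphate to pyruvate fell, where ATP and NADH are made. Gapdh, the dehydrogenase often used as a loading reference (ENSMUSG00000057666, GRCm38 chromosome 6, 125161715 to 125166467, minus strand), had 2419, 2356, 2267 and 2294 CPM under ad-GFP, against 1629, 1677, 1684 and 1551 CPM under ad-CRE. No ad-CRE library reached the ad-GFP range (log2 change −0.51, SE 0.025, edgeR adjusted p = 6.41e-18), and with 1749.7 ± 60.7 FPKM in ad-GFP and 1213 ± 53.4 FPKM in ad-CRE (SD, n = 4) it was the most abundant of the 35 per length. Pgk1, which makes the first ATP of the pathway (ENSMUSG00000062070, GRCm38 chromosome X, 106187100 to 106203699, plus strand), had 499.9, 519.7, 515 and 532 CPM under ad-GFP, against 261, 247, 249 and 256 CPM under ad-CRE. It was 2.04-fold lower with no overlap (log2 fold change −1.03, SE 0.027, edgeR adjusted p = 1.02e-24). Pgam1, the mutase that moves the phosphate group (ENSMUSG00000011752, GRCm38 chromosome 19, 41911923 to 41918660, plus strand), had 535, 541, 531 and 544 CPM under ad-GFP, against 365, 366, 355 and 357 CPM under ad-CRE. The groups did not overlap (log2 change −0.58, SE 0.024, edgeR adjusted p = 1.51e-19).

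Enolase and pyruvate kinase follow. Eno3, the muscle enolase (ENSMUSG00000060600, GRCm38 chromosome 11, 70657202 to 70662513, plus strand), had 42.8, 45.1, 50.4 and 45.7 CPM under ad-GFP, against 5.11, 5.46, 4.67 and 4.66 CPM under ad-CRE. It was 9.21-fold lower (log2 change −3.20 with SE 0.073, edgeR adjusted p = 4.17e-26), which no other of the 35 genes exceeded in size. Eno1, the enolase of most cells, fell less, from 1221 ± 6.48 to 901 ± 12.8 CPM (SD, n = 4; log2 change −0.44, edgeR adjusted p = 7.16e-18). It has a near-identical copy, Eno1b, which had 302 ± 7.87 and 233 ± 15.8 CPM (SD, n = 4; −0.37 in log2 units, edgeR adjusted p = 3.78e-11). The sources used here do not say how shared reads were assigned, so the split between both is uncertain. Mouse Gapdh, Ldha, Pgk1, Pgam1, Tpi1 and Aldoa also have processed pseudogenes to which the same doubt applies. Eno2, the neuronal enolase, was low, 6.09 ± 0.260 to 4.39 ± 0.475 CPM (SD, n = 4), and fell in counts (log2 change −0.47, edgeR adjusted p = 0.000975). On log2(FPKM + 1) and log2(FPKM + 0.1) it did not pass (limma adjusted p = 0.0672 and 0.0615). Pkm, the pyruvate kinase gene, went from 1684 ± 17.2 to 1130.3 ± 8.29 CPM (SD, n = 4) with no overlap (log2 change −0.58, SE 0.02, edgeR adjusted p = 2.45e-21). Gene totals do not separate its M1 and M2 splice forms.

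Lactate dehydrogenase showed opposite moves in its 2 genes. Ldha, whose subunit favours the making of lactate (ENSMUSG00000063229, GRCm38 chromosome 7, 46841475 to 46855627, plus strand), had 686, 702, 707 and 690.5 CPM under ad-GFP, against 346, 329, 348 and 323 CPM under ad-CRE. All ad-CRE values lay near the lower level, 2.07-fold lower (log2 fold change −1.05, SE 0.026, edgeR adjusted p = 3.16e-25). Ldhb, whose subunit favours the use of lactate, rose from 211 ± 12.2 to 259 ± 4.98 CPM (SD, n = 4; log2 change 0.30, SE 0.032, edgeR adjusted p = 1.64e-09), also with no overlap. The Ldha share of their summed FPKM was 72.5, 71.6, 74.4 and 72.4% under ad-GFP, against 51.5, 50.6, 52.6 and 49.3% under ad-CRE. So Ldha led clearly in ad-GFP, and in ad-CRE the 2 transcripts were about equal, with Ldhb ahead in replicate 4.

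**Figure D3:**
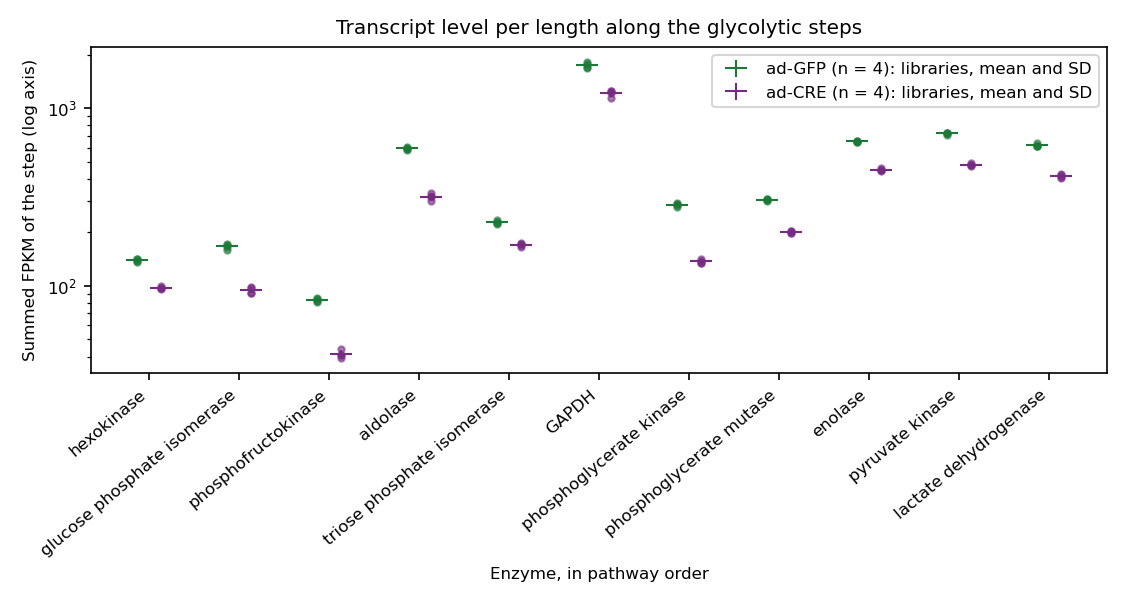
Summed FPKM of the listed genes of each glycolytic step (y axis, log), in pathway order, with each library as a point and the mean and SD of 4 libraries per group. Each of the 11 steps is lower in ad-CRE, at 48.1% (phosphoglycerate kinase) to 74.7% (triose phosphate isomerase) of the ad-GFP mean.

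Summed by step over the listed genes, every one of the 11 enzymes from hexokinase to lactate dehydrogenase was lower in each ad-CRE library than in any ad-GFP library. The enolase sum leaves out Eno1b. Phosphofructokinase had the lowest level per length of the steps, 83.4 ± 1.78 FPKM in ad-GFP and 41.3 FPKM in ad-CRE (range 39.3 to 44.1), which is 49.5% of ad-GFP. Phosphoglycerate kinase stood at 48.1% and aldolase at 53.3%. Hexokinase stood at 70.1% and lactate dehydrogenase, where the rise of Ldhb stood against the fall of Ldha, at 67.3%.

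The make-up of the isozyme families was compared in 9 families, each by the share of summed FPKM held by 1 named gene, using a two-sided exact permutation test over libraries. With 4 against 4 libraries the smallest p this test can give is 0.0286. In 8 families the groups did not overlap and p was at that value (0.0321 after Benjamini-Hochberg adjustment over the 9). Separation is common here, since 66.2% of all genes tested, taken singly, also had groups that did not overlap. No such background was computed for shares within other gene families, and the genes were chosen with earlier results known. The count of 8 therefore does not set these families apart from other genes. Among these 9 named genes the shifts were largest for Pfkp (−24.3 percentage points, ad-CRE minus ad-GFP), Pfkfb3 (24.1) and Ldha (−21.7), followed by Hk2 (9.75) and Eno1 (4.25). Eno1 held 94.5% ± 0.228 in ad-GFP and 98.7% ± 0.101 in ad-CRE (SD, n = 4), and Eno3 went from 5.06% ± 0.272 to 0.835% ± 0.0315. These shares hold only among Eno1, Eno2 and Eno3, since the near-identical copy Eno1b was left out of the family. From ad-GFP to ad-CRE the mean of Eno1b went from 302 to 233 CPM, against 46.0 to 4.98 CPM for Eno3. Shares with Eno1b included were not computed, so the size of the Eno1 shift depends on that choice. For Aldoa, Hif1a and Egln3 the shift was under 1 percentage point. The Pdk1 share did not differ beyond its spread (12.9% ± 1.39 in ad-GFP and 13.6% ± 0.880 in ad-CRE, SD, n = 4, exact permutation p = 0.4, adjusted p = 0.4), and the size of its difference depended on the scale and the libraries. It was 0.72 percentage points on FPKM and 3.80 on CPM (exact permutation, adjusted p = 0.0571), and 0.36 to 1.41 with 1 library left out. At 1.41, without ad-GFP replicate 4, the groups did not overlap.

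**Figure D4:**
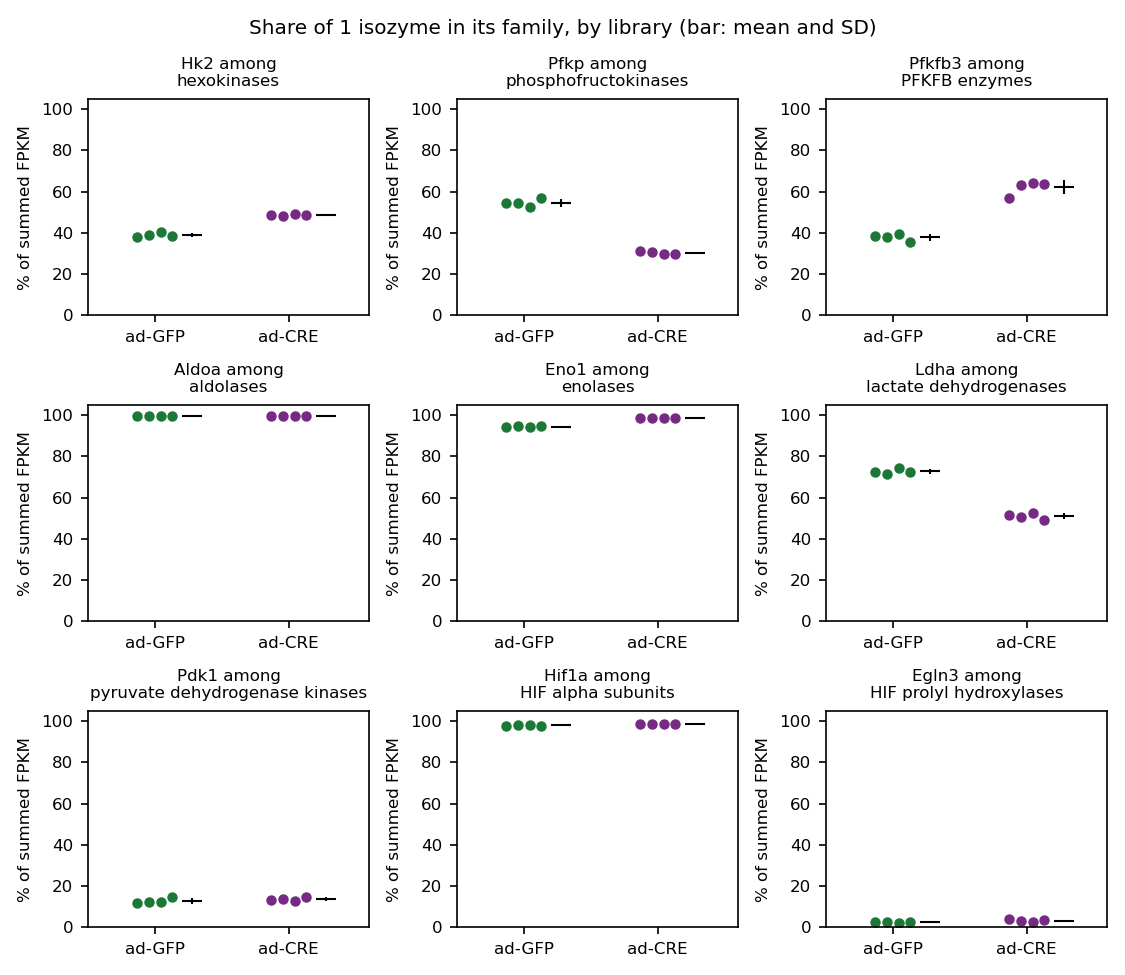
Percent of the summed FPKM of a family held by 1 named gene (y axis) in each library of ad-GFP and ad-CRE, with the mean and SD of 4 libraries as a cross. Pfkp and Ldha take smaller and Pfkfb3 and Hk2 larger shares in ad-CRE, while Aldoa and Hif1a hold nearly all of their families in both groups.

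Pyruvate dehydrogenase kinases restrain the entry of pyruvate into the citric acid cycle, and the 4 genes moved in both directions. Pdk4, the form raised by fasting and fatty acids (ENSMUSG00000019577, GRCm38 chromosome 6, 5483351 to 5496309, minus strand), had 23.1, 32.6, 26.5 and 28.1 CPM under ad-GFP, against 7.15, 6.40, 7.31 and 7.26 CPM under ad-CRE. The ad-GFP libraries were scattered, but none came near the ad-CRE range, which was 3.91-fold lower (log2 fold change −1.97, SE 0.09, edgeR adjusted p = 2.31e-18). Pdk2, a broadly expressed form (ENSMUSG00000038967, GRCm38 chromosome 11, 95026258 to 95041354, minus strand), had 6.48, 6.48, 6.46 and 7.08 CPM under ad-GFP, against 14.1, 12.1, 13.7 and 15.9 CPM under ad-CRE. It was 2.10-fold higher with no overlap (log2 fold change 1.07, SE 0.095, edgeR adjusted p = 1.88e-11). Pdk3 (ENSMUSG00000035232, GRCm38 chromosome X, 93764607 to 93832201, minus strand) had 21.1, 20.3, 19.5 and 16.6 CPM under ad-GFP, against 16.2, 17.3, 15.2 and 17.8 CPM under ad-CRE. Its groups overlapped, and the fall was small (log2 change −0.23, SE 0.073, edgeR adjusted p = 0.00515).

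Pdk1, the kinase best known as a HIF target, changed little, 15.5 ± 1.56 to 13.4 ± 1.76 CPM (SD, n = 4), with overlapping groups (log2 change −0.21, SE 0.087, edgeR adjusted p = 0.0316). That call was lost without ad-GFP replicate 2 or 4 (edgeR adjusted p = 0.0754 and 0.146), without ad-CRE replicate 2 or 3 (edgeR adjusted p = 0.0716 and 0.163) and on log2(FPKM + 1) and log2(FPKM + 0.1) (limma adjusted p = 0.0856 and 0.0927). By share of summed FPKM, Pdk4 went from 34.6% ± 2.88 to 12.0% ± 1.57 of the family and Pdk2 from 12.8% ± 0.972 to 32.8% ± 2.31 (SD, n = 4), while Pdk3 held 39.7% ± 3.98 and 41.6% ± 2.24.

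The HIF alpha genes Hif1a and Epas1 fell and their partner rose. Hif1a (ENSMUSG00000021109, GRCm38 chromosome 12, 73901375 to 73947530, plus strand) had 339, 351, 361 and 347 CPM under ad-GFP, against 279.7, 278, 265 and 287 CPM under ad-CRE. The groups did not overlap, and the fall was modest (log2 change −0.33, SE 0.028, edgeR adjusted p = 5.17e-12). Epas1, which encodes HIF-2 alpha (ENSMUSG00000024140, GRCm38 chromosome 17, 86753700 to 86833410, plus strand), had 8.61, 7.40, 7.55 and 8.94 CPM under ad-GFP, against 4.93, 3.85, 4.95 and 4.20 CPM under ad-CRE. It was low in all libraries, and 1.80-fold lower in ad-CRE with no overlap (log2 fold change −0.85, SE 0.12, edgeR adjusted p = 2.02e-07). On log2(FPKM + 1), which understates changes of low genes, the change was −0.46. Per length Hif1a held 98.1% ± 0.214 in ad-GFP and 98.7% ± 0.193 in ad-CRE (SD, n = 4) of the sum of both. Arnt, the shared partner subunit, rose from 45.2 ± 1.19 to 60.3 ± 2.90 CPM (SD, n = 4; log2 change 0.42, SE 0.044, edgeR adjusted p = 8.65e-10).

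The genes that mark and remove the alpha subunits changed little. Egln1, the main oxygen-sensing prolyl hydroxylase (ENSMUSG00000031987, GRCm38 chromosome 8, 124908587 to 124949324, minus strand), had 60.1, 61.9, 62.3 and 63.1 CPM under ad-GFP, against 56.1, 55.7, 54.9 and 55.3 CPM under ad-CRE. Its ad-CRE values were all below its ad-GFP values, a fall of small size (log2 change −0.16, SE 0.039, edgeR adjusted p = 0.00082). Egln3, the hydroxylase that HIF itself induces (ENSMUSG00000035105, GRCm38 chromosome 12, 54178981 to 54203860, minus strand), had 2.08, 2.09, 1.79 and 2.17 CPM under ad-GFP, against 3.08, 2.39, 2.36 and 2.59 CPM under ad-CRE. Its values were higher in every ad-CRE library, yet with 151 and 210 reads in all it did not pass (log2 change 0.36, 95% interval 0.01 to 0.71, edgeR adjusted p = 0.0725). On log2(FPKM + 1) it passed (log2 change 0.15, limma adjusted p = 0.0479). Vhl, the substrate receptor of the ubiquitin ligase that removes HIF alpha, rose from 20.1 ± 0.785 to 23.8 ± 1.43 CPM (SD, n = 4; log2 change 0.25, edgeR adjusted p = 0.000458). Egln2, the hydroxylase first known from oestrogen-responsive cells, rose by 0.16 in log2 units (23.8 ± 0.504 to 26.5 ± 2.65 CPM, SD, n = 4, edgeR adjusted p = 0.0265). That call was lost without ad-CRE replicate 3, the library with its highest value (log2 change 0.08, edgeR adjusted p = 0.22), without ad-GFP replicate 4 (0.14, edgeR adjusted p = 0.0619), with scaling by total counts (0.13, edgeR adjusted p = 0.0666), under the filter of 5 CPM in 4 libraries (0.13, edgeR adjusted p = 0.0577), with DESeq2 (0.15, DESeq2 adjusted p = 0.0593), and on log2(FPKM + 1) and log2(FPKM + 0.1) (limma adjusted p = 0.0813 and 0.0779).

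The hypoxia response genes split. Bnip3, a mitochondrial protein of mitophagy (ENSMUSG00000078566, GRCm38 chromosome 7, 138890836 to 138909519, minus strand), had 31.6, 31.9, 33.1 and 33.2 CPM under ad-GFP, against 20.8, 18.3, 18.6 and 16.4 CPM under ad-CRE. All ad-CRE values were lower, 1.74-fold lower (log2 fold change −0.80, SE 0.061, edgeR adjusted p = 6.21e-13). Ndrg1, a stress-responsive gene also induced by iron loss (ENSMUSG00000005125, GRCm38 chromosome 15, 66929318 to 66969640, minus strand), had 181, 167, 168 and 172 CPM under ad-GFP, against 208, 215, 212 and 221 CPM under ad-CRE. It rose with no overlap (log2 change 0.31, SE 0.031, edgeR adjusted p = 1.43e-10). Car9, the carbonic anhydrase used as a hypoxia marker, had 27 reads in the ad-GFP and 22 in the ad-CRE libraries, and Ankrd37 had 60 and 36, so no change was detectable at this depth. The symbol Ero1l matched no row, but the same gene, an oxidase of protein folding, is listed under its present symbol Ero1a (ENSMUSG00000021831), where it fell from 115 ± 2.04 to 95.1 ± 4.49 CPM (SD, n = 4; log2 change −0.27, edgeR adjusted p = 4.32e-08).

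Other genes of the pathway were taken from 8 lists that do not hold the 38, and the share that fell in them ran from 20% to 55.6% of the genes tested. Over all genes tested 36.3% fell and 36.8% rose, so some of these lists lie near or below that share. The values given for them are log2 fold changes. Of 6 other glycolytic isozymes tested 3 fell and 2 rose, with Hkdc1 at −1.98, Bpgm, which makes 2,3-bisphosphoglycerate, at 0.62, and Adpgk at 0.13. With scaling by total counts 4 fell and 1 rose, since the call of Adpgk was lost (edgeR adjusted p = 0.0845) and Tigar passed with a lower level (edgeR adjusted p = 0.038). Of 12 glucose and monocarboxylate transporters 5 fell and 3 rose. The lactate exporter Slc16a3 had −2.49, its chaperone Bsg −0.15 and Slc16a7 −1.35, and the main glucose importer Slc2a1 rose by 0.36. Of 5 gluconeogenesis genes 1 fell and 2 rose (Pcx −0.33, Pck2 0.14), and G6pc3 did not pass (log2 change 0.08, edgeR adjusted p = 0.275). In the pentose phosphate pathway, which feeds glycolytic sugar into NADPH and ribose, 5 of 9 fell and 2 rose, with −1.01 for Pgd and −1.03 for Taldo1. In glycogen metabolism 5 of 10 fell and 4 rose (3 with scaling by total counts), with −1.28 for Ugp2, −1.70 for the branching enzyme Gbe1 and −0.37 for Pgm1.

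In pyruvate dehydrogenase and the citric acid cycle, which take pyruvate onward in mitochondria, log2 fold changes lay between −0.55 and 0.44. Of 23 genes 10 fell, 5 rose and 8 did not pass (12 fell and 4 rose with scaling by total counts), with Idh3a at −0.55, Dld at −0.38, Mdh2 at −0.22 and Cs at −0.17. Of 13 HIF cofactors and regulators 6 fell and 6 rose (5 rose with scaling by total counts), with Arnt2 at −0.36, Cited2, which competes with HIF for its coactivators, at −0.30, Rack1 at 0.15 and Hsp90ab1 at −0.04. Of 25 further hypoxia-inducible genes 12 were lower, 8 higher and 5 not past the threshold (median −0.09). Among these Bhlhe40, a transcriptional repressor, rose by 0.86, whereas the collagen crosslinking enzyme Lox had −0.96 and the haem-degrading enzyme Hmox1 −0.64. The share that fell was 48.0% in that list, 43.5% in the citric acid cycle list and 68.6% among the 35. These shares are descriptions, and no test of the difference between lists was made.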

How the data were processed

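RNA was measured in 8 libraries, 4 per group. Per the labels' protocols, the library kit was SMARTer mRNA-Seq, and the submitters' processing notes name GRCm38 and mm10. The sources used here do not give the aligner, counter, annotation or strand setting. Per the file headers, the authors deposited read counts and FPKM per library, and their own mean FPKM, log2 fold change, p-value and FDR, which were not used. Columns were matched to samples by title.

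Counts were filtered with filterByExpr, scaled with TMM factors and tested in edgeR 4.0.16 (R 4.3.3; glmQLFit, glmQLFTest, group as the only term), with Benjamini-Hochberg adjustment over all 13702 genes. The fit was tested on simulated data. SE is the size of the log2 fold change divided by the square root of F, and 95% intervals are 1.96 SE to each side. These intervals are somewhat narrower than the quasi-likelihood test implies. Shares and steps use deposited FPKM. Coordinates are from GENCODE M21 (GRCm38), and all 38 rows were found there. Exons of Aldoa, Bnip3, Car9, Ankrd37, Egln2, Gapdh, Gpi1, Hif1a, Hk1, Ndrg1, Pfkfb1, Pfkfb2, Pfkm, Pfkp and Tpi1 overlap a gene on the opposite strand. Without strand use, reads of both cannot be told apart there. Exons of Hif1a, Pfkfb2, Pfkm and Pkm overlap a gene on the same strand, which strand use does not separate. Alternatives were other scalings and filters, DESeq2 1.42.0, limma 3.58.1 (voom, and log2(FPKM + 1) or log2(FPKM + 0.1)), a replicate term, CPM in place of FPKM for shares, and leaving out each library.

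The members and lists were chosen with earlier results of these data known. In each role group, library values are given for the gene with the largest change, the most abundant gene and others past the threshold by at least 0.5 log2 units, up to 4. In each other list, the 2 genes with the smallest p and the 2 most abundant are named. 1 gene that this rule names is not reported here. No 2 replicates were close enough in counts to be 1 library (chi-square over degrees of freedom, 1.70 to 3.25).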

Additional observations from a re-analysis of the deposited data

Results flagged for a closer look

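In each group of 4 libraries, the highest and lowest value of every tested gene and isozyme share were compared with the other 3 by Dixon's gap test. Of 88 groups 3 had a library that stood apart, where chance gives about 1 in 20. Pkm in ad-GFP replicate 3 was 1659 CPM, against 1692 to 1695 CPM in the other ad-GFP libraries. Pdk2 in ad-GFP replicate 4 was 7.08 CPM, against 6.46 to 6.48 CPM. The Pfkfb3 share of the PFKFB enzymes in ad-CRE replicate 1 was 57.0%, against 63.1% to 64.2%. In each case the library lay on its own group's side of the other group.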

How the results depend on the processing

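The fit was repeated under 17 alternatives. The number of genes that fell was 22 to 24 and of those that rose 6 to 7, and the count over all genes was 8366 to 10765 of those tested. The median of the genes stayed below 0, between −0.44 and −0.34. It was −0.44 with the filter of 5 CPM in 4 libraries, which drops low genes and leaves 32, against −0.37. Of 592 values of single genes 569 kept their direction and side of the threshold, 20 lost the call, 3 gained it and 0 reversed. In 29 of 35 genes no alternative changed the call, and the exceptions are Egln2, Egln3, Eno2, Pdk1, Pfkfb1 and Pfkfb4. With a replicate block the counts were 24 and 7 and the median −0.37, and 9963 genes passed over all. Libraries with the same number did not deviate together (r −0.07 to 0.07), and 2 of 8 correlated best with their own number, so the numbers were not taken as pairs. Isozyme shares kept their direction in 72 of 72 values without 1 library, where p cannot go below 0.0571, and all 9 kept direction and call with CPM, though the Pdk1 difference went from 0.72 to 3.80 percentage points. On log2(FPKM + 1) the change of Epas1 was −0.46 and of Pfkfb1 −0.20, against −0.85 and −0.31. Low counts limit Egln3, Aldoc, Pfkfb1, Pfkfb4, Car9 and Ankrd37.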
